A study of Mus musculus with 9 samples.

Results

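The homing and chemokine receptor genes described here are 8 genes that steer where a T cell goes. They were chosen by name, with earlier results of these data known, and all 8 were found among the 20618 genes of the tables. They are the chemokine receptors Ccr7, Ccr2, Ccr8, Cxcr3, Cxcr4 and Cxcr6, the egress receptor S1pr1 and the transcription factor Klf2. Their RNA was measured by sequencing in primary CD8+ T cells of wild-type mice, the lymphocytes that kill infected and tumour cells. The cells spent 24 h in 1 of 3 media, 2 mM inosine with hypoxanthine, 2 mM inosine alone or 2 mM glucose, with 3 libraries per medium. Serum at 10%, dialyzed, was in every medium, all libraries carry the same batch label, and live cells, about 80% of the total, were sorted for RNA. Hypoxanthine is the base and ribose the sugar of the nucleoside inosine, so the comparisons ask what the free base adds to inosine, how that medium differs from glucose, and how the nucleoside differs from the sugar. The labels do not give the animals, the activation state of the cells or whether replicate libraries were prepared from different cultures, so the p-values measure only the spread between these libraries.

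A chemokine receptor is a G protein-coupled receptor that makes a cell move up a gradient of its ligand. CCR7 follows CCL19 and CCL21 into lymph nodes and is typical of naive and central memory T cells, whereas CXCR3, CCR2 and CXCR6 mark activated, effector or tissue-resident T cells that enter or stay in inflamed and peripheral tissue. S1PR1 senses sphingosine-1-phosphate and lets T cells leave lymphoid organs, and KLF2, itself held up by FOXO1 in resting T cells, drives transcription of S1pr1.

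On GRCm38 (mm10), GENCODE places Ccr7 at chr11:99144196-99155077, Cxcr3 at chrX:101731535-101734269, Cxcr4 at chr1:128588199-128592293 and S1pr1 at chr3:115710433-115715072, all on the minus strand. Klf2 lies at chr8:72319033-72321656, Ccr8 at chr9:120092114-120094906, Cxcr6 at chr9:123806475-123811760 and Ccr2 at chr9:124101950-124113557, all on the plus strand. RefSeq promoter windows of 300 bases on GRCm38.p6 matched 6 of the 8 genes by symbol, with no window for Ccr7 and S1pr1. Each runs from 250 bases before to 50 after the start that RefSeq annotates. That start can differ from the GENCODE one, and much of the Ccr2 and Cxcr3 windows lies inside the GENCODE spans above. The 4 windows below belong to those genes with a window that passed the test in both comparisons with hypoxanthine, and they are shown 5′ to 3′ on the strand of the gene so that the start regions of genes that moved in opposite directions can be read side by side. Capitals mark CACCC or its reverse complement GGGTG, the core that Krüppel-like factors such as KLF2 bind.
Ccr2 chr9:124101933-124102232, plus strand: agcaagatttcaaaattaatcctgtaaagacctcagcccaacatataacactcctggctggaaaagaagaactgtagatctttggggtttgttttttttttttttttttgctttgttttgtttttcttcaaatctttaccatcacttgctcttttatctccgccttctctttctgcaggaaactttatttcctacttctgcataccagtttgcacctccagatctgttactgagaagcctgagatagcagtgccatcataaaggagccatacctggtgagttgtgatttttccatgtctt
Cxcr3 chrX:101734098-101734397, minus strand: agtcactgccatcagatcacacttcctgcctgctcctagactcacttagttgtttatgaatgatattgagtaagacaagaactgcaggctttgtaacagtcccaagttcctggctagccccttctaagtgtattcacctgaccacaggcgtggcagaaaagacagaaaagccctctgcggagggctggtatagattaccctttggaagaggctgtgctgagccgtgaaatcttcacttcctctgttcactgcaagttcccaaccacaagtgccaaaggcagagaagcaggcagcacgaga
Klf2 chr8:72318812-72319111, plus strand: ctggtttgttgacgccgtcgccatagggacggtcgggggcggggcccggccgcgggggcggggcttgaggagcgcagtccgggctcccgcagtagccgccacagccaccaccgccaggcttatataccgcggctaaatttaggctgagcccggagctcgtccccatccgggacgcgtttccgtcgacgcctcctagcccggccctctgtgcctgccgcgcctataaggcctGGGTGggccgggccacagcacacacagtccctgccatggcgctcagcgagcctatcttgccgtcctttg
Ccr8 chr9:120091883-120092182, plus strand: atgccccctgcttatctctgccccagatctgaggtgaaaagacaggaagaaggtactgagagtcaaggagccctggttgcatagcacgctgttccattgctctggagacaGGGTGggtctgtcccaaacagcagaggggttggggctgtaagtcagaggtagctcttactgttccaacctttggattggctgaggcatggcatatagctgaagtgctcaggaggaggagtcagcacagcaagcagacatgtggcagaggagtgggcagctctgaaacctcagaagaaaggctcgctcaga
Klf2 held 1 match, GGGTG, which begins 19 bases before the RefSeq start but inside the span that GENCODE gives for Klf2. Ccr8 held 1 GGGTG, beginning 140 bases before the RefSeq start, and Ccr2 and Cxcr3 held no match to CACCC on either strand. CACCC or GGGTG is common, being present in 57.5% of the 32851 mouse windows of this length. GTAAACA or its reverse complement TGTTTAC, a core of FOXO sites, is in 3.65% of windows and was in none of the 6. The window of Klf2 had the highest GC content of the 4 at 69.3%, that of Ccr2 the lowest at 38%, and the median over all windows was 52.7%. These are letter matches in 1 window per gene and were not tied to the expression values.

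Adding hypoxanthine to inosine changed 6 of the 8 genes, 2 upwards and 4 downwards. Ccr7 rose 4.61-fold and the scarce Ccr8 rose, while Ccr2, Cxcr3, Cxcr6 and Klf2 fell. Cxcr4 and S1pr1 did not pass the test. The calls of Ccr8, Cxcr6 and Klf2 were lost in some other settings, as given below. As the 8 genes were chosen with earlier results known, their count beside the share of all genes is a description, not a test. A gene passed at a limma adjusted p under 0.05 over all 20618 genes, on log2(FPKM + 1), where FPKM is the fragment number divided by gene length and library size. By that rule 21.3% of all genes passed in this comparison, 11.7% higher and 9.59% lower. Shares of all genes include scarce ones: 9947 of the 20618 averaged at least 1 FPKM over the libraries, as did 6 of the 8. Against glucose, 5 of the 8 passed, the same genes without Cxcr6, beside 20.3% of all genes, 10.8% higher and 9.55% lower. Between inosine and glucose none of the 8 passed, beside 0.0097% of all genes, or 2 genes. At an unadjusted limma p under 0.05 that comparison also held none of the 8, beside 2.83% of all genes, or 584 genes. The comparisons of the hypoxanthine medium share its libraries, so they are not independent of each other.

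**Figure D1:**
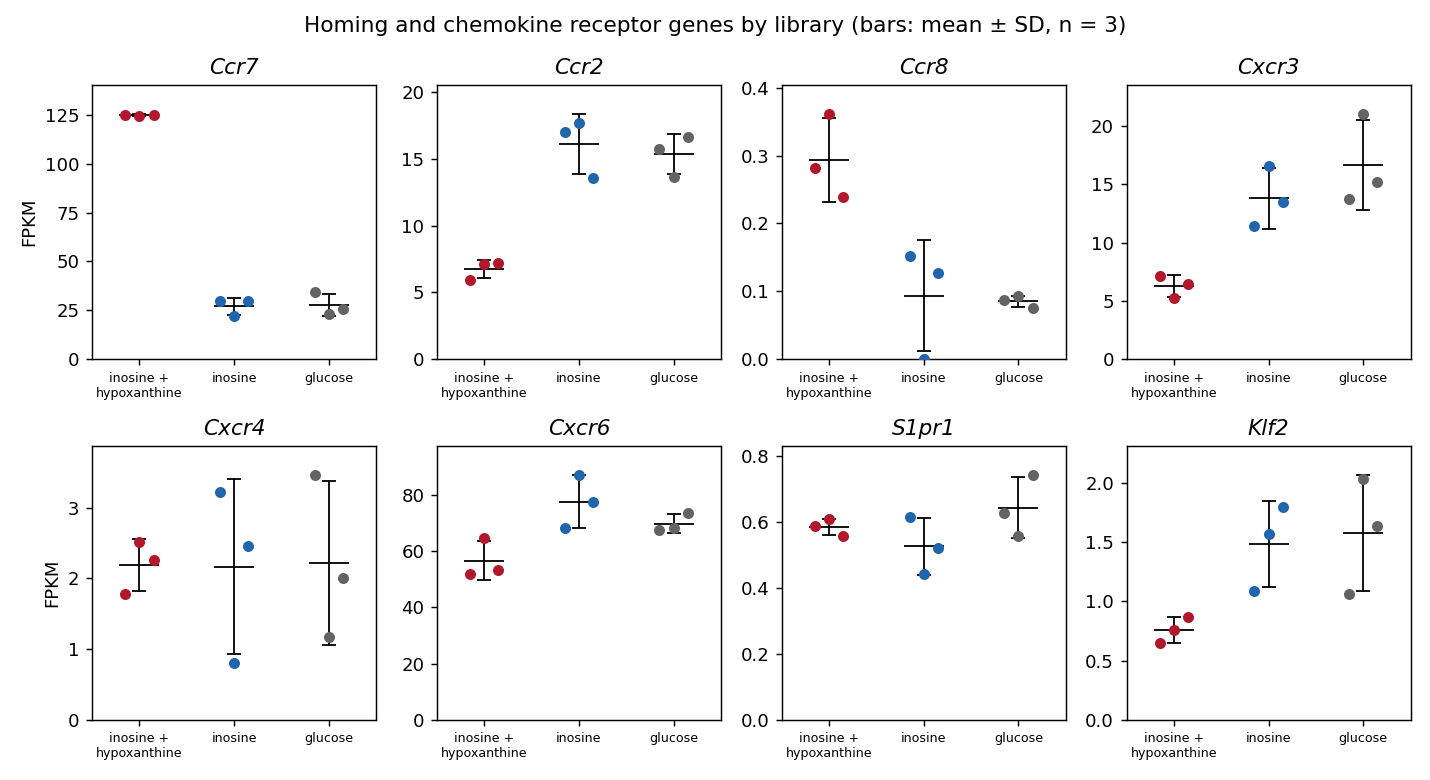
FPKM of each gene in every library; each point is 1 library, the long dash is the mean and the bars are the SD (n = 3 per medium), with a separate linear axis from 0 for each gene. Ccr7 sits near 125 FPKM in the hypoxanthine medium and under 35 in the other media, while Ccr2, Cxcr3 and Klf2 are lowest in the hypoxanthine medium in all 3 libraries.

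The libraries held 30851754 to 50098426 whole reads, as recovered from the deposited group means, and 16245 to 17217 genes above 0. The defining T cell markers Cd3d, Cd3e, Cd3g, Cd8a and Cd8b1 and the costimulatory receptor Cd28 were present in all 9 libraries, and none was at 0. Their summed level was 1110 to 1190 FPKM with hypoxanthine, 578 to 757 with inosine and 620 to 676 with glucose, so it moved in the same direction as Ccr7. The 6 monocyte or macrophage markers summed to 3.19 to 3.88 FPKM with hypoxanthine, 2.57 to 4.24 with inosine and 3.07 to 4.27 with glucose, and 5 of the 6 stayed under 1 FPKM in every library. Summed B cell markers were at most 1.84 FPKM, NK cell markers at most 0.241, erythroid markers at most 0.285 and CD4 T cell markers at most 6.72. Nearly all of the CD4 T cell sum was Zbtb7b, at 4.31 to 6.42 FPKM, while Cd4 stayed at or under 0.0523 and Cd40lg at or under 0.312. The 4 measured dendritic cell markers summed to 1.42 to 2.58 FPKM with hypoxanthine, 0.376 to 0.738 with inosine and 0.408 to 2.93 with glucose. Among them Zbtb46 averaged 1.49 FPKM with hypoxanthine, 0.431 with inosine and 0.44 with glucose, while Flt3 stayed at or under 0.0179 in every library. Itgax went the other way, at 0.0542 FPKM with hypoxanthine, 0.107 with inosine and 0.114 with glucose. Xcr1 averaged 0.328 FPKM with hypoxanthine, 0 with inosine and 1.44 with glucose, but was present in some libraries and absent from others of the same medium. It had 0.983, 0 and 0 FPKM with hypoxanthine and 2.23, 0 and 2.10 FPKM with glucose, and did not pass in any comparison. The 3 stromal markers summed to 3.99 to 4.53 FPKM with hypoxanthine, 2.93 to 3.71 with inosine and 2.74 to 3.43 with glucose, nearly all of it Pecam1, and Col1a1 and Col1a2 stayed at or under 0.0457. The stromal sum and Zbtb46 thus moved in the same direction as Ccr7, and their part in the results was not tested. Mitochondrial genes made up 5.84% of FPKM in hypoxanthine replicate 2 and 6.5% in inosine replicate 2, against 4.03% to 4.82% elsewhere. Without these 2 libraries, 5 of the 8 genes passed in each comparison with hypoxanthine. In bulk RNA a larger share of cells with a transcript and more transcript per cell cannot be told apart.

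Ccr7, the lymph node homing receptor, had 125.1, 124.3 and 125.1 FPKM with hypoxanthine, against 29.8, 22.04 and 29.5 FPKM with inosine and 34.1, 23.2 and 25.4 FPKM with glucose. The hypoxanthine libraries were all above every other library and differed from each other by under 1 FPKM. Between 11532 and 14658 reads stood behind each of those hypoxanthine values. The difference of log2(FPKM + 1) was 2.18 ± 0.15 (SE) against inosine (adjusted p = 5.78e-05) and 2.16 ± 0.15 against glucose (adjusted p = 5.75e-05). Between inosine and glucose it was -0.02, with a 95% interval of -0.36 to 0.33. The level of Ccr7 was above that of 97.8% of all genes in the hypoxanthine medium, 88.8% in inosine and 88.9% in glucose. Over the 9 libraries, the genes whose centred log2(FPKM + 1) lay closest to that of Ccr7 were Slc2a6, Tagap and Cd200, at root mean square differences of 0.0851, 0.0919 and 0.0971, where Ccr7 itself deviated from its mean by 1.036. Tagap, for one, averaged 38.9 ± 2.66 FPKM with hypoxanthine, 8.03 ± 1.14 with inosine and 8.05 ± 1.37 with glucose (SD, n = 3 each). The T cell marker list rose beside Ccr7, as given above, and its part in the result was not tested.

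Ccr2, the receptor for CCL2 and related monocyte chemoattractants, had 5.93, 7.10 and 7.19 FPKM with hypoxanthine, against 17.03, 17.7 and 13.6 FPKM with inosine and 15.7, 13.7 and 16.6 FPKM with glucose. No hypoxanthine library reached the lowest library of the other media. The log2 difference was -1.14 ± 0.12 against inosine (adjusted p = 0.000353) and -1.08 ± 0.12 against glucose (adjusted p = 0.000505). The mean level was 0.419 times that with inosine and 0.439 times that with glucose. Inosine minus glucose was 0.06, with a 95% interval of -0.21 to 0.33. How reads shared with related receptor genes were counted is not stated, so the level of Ccr2 is uncertain to that extent. The closest genes were Snhg3, Gm5127 and 2010204K13Rik, at root mean square differences of 0.1041, 0.1087 and 0.1124.

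Cxcr3, the receptor for the interferon-induced ligands CXCL9 and CXCL10, had 7.11, 5.23 and 6.46 FPKM with hypoxanthine, against 11.4, 16.6 and 13.5 FPKM with inosine and 13.7, 21.02 and 15.2 FPKM with glucose. The hypoxanthine libraries were all below the others, and replicate 2 was the highest of its medium with inosine and with glucose but the lowest with hypoxanthine. The log2 difference was -1.02 ± 0.18 against inosine (adjusted p = 0.00432) and -1.27 ± 0.18 against glucose (adjusted p = 0.00162). Inosine minus glucose was -0.25, with a 95% interval of -0.65 to 0.16, so these libraries do not separate equal levels from a moderately lower one with inosine. Atrip-trex1, Chchd10 and Plaur were closest to Cxcr3, at 0.1777, 0.1809 and 0.1864, where Cxcr3 deviated by 0.587.

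Cxcr6, the receptor for CXCL16 found on tissue-resident and effector CD8+ T cells, was the most abundant receptor of the 8 in inosine and glucose. It had 52.1, 64.6 and 53.4 FPKM with hypoxanthine, against 68.2, 87.1 and 77.6 FPKM with inosine and 67.4, 68.3 and 73.7 FPKM with glucose. The hypoxanthine libraries were all below the others, while those with inosine and glucose overlapped. Hypoxanthine replicate 2 came within 4 FPKM of the lowest glucose library. The log2 difference was -0.45 ± 0.11 against inosine (adjusted p = 0.0205) and -0.30 ± 0.11 against glucose, where it did not pass (adjusted p = 0.0903, 95% interval -0.55 to -0.05). The call against inosine was lost without hypoxanthine replicate 1 (adjusted p = 0.0767) or replicate 3 (0.0831) and without inosine replicate 2 (0.0504) or replicate 3 (0.0644), and the call against glucose was gained without hypoxanthine replicate 2 (0.041). In the authors' deposited table, which gives the other medium over the hypoxanthine medium, the log2 fold change of Cxcr6 was 0.4947 for inosine (adjusted p = 0.00204) and 0.3225 for glucose (adjusted p = 0.00811). Inosine minus glucose was 0.145 in the limma fit, with an interval of -0.10 to 0.40. The gene lies inside Fyco1, which is annotated on the opposite strand and averaged 2.77 ± 0.14 FPKM with hypoxanthine, 2.16 ± 0.20 with inosine and 2.03 ± 0.26 with glucose. As the strand of the libraries is not stated, it is not known how reads from stretches that the 2 genes share were assigned. Rars, Nop58 and Nup37 followed Cxcr6 most closely, at 0.0323, 0.0380 and 0.0428.

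**Figure D2:**
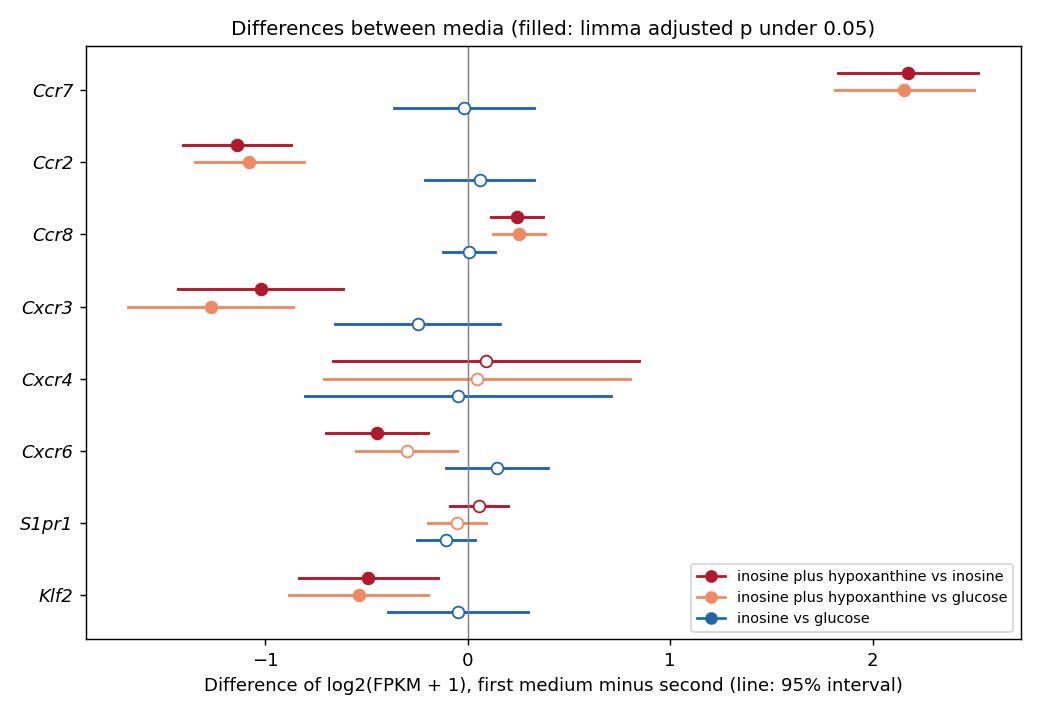
Difference of log2(FPKM + 1) for the 8 genes, first medium minus second, in the 3 comparisons; points are the limma estimates, lines their 95% intervals, and filled points passed at an adjusted p under 0.05. Ccr7 stands at 2.18 and 2.16 in the comparisons with hypoxanthine, Ccr2 and Cxcr3 between -1.02 and -1.27, and all intervals of inosine against glucose cross 0.

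Ccr8, the receptor for CCL1, was the scarcest of the 8. It had 0.281, 0.361 and 0.239 FPKM with hypoxanthine, from 19, 25 and 13 reads. With inosine it had 0.153, 0 and 0.127 FPKM, from 9, 0 and 8 reads, and with glucose 0.0866, 0.0927 and 0.0755 FPKM, from 5, 5 and 6 reads. Every hypoxanthine library was above every other library, though all are low. The difference of log2(FPKM + 1) was 0.245 ± 0.057 against inosine (adjusted p = 0.0156) and 0.253 ± 0.057 against glucose (adjusted p = 0.014), a scale on which such low values are compressed. The call was lost when the reads were weighted by their precision with limma voom (adjusted p = 0.0535 against inosine, 0.17 against glucose). It was also lost without hypoxanthine replicate 2 against inosine (0.0516) and without glucose replicate 3 against glucose (0.0514). The authors' deposited table gives an adjusted p of 0.239 for Ccr8 with inosine and of 0.0673 with glucose, each set against hypoxanthine. With inosine minus glucose the difference was 0.008, with a 95% interval of -0.12 to 0.14. The closest genes, Erlec1, Ubxn7 and N4bp3, lay within 0.0503 of it, where Ccr8 itself deviated by 0.132. Their likeness holds on this compressed scale alone: Erlec1 averaged 6.86 FPKM with hypoxanthine, 5.61 with inosine and 5.73 with glucose, a smaller ratio than that of Ccr8.

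Klf2, a transcription factor of quiescent and recirculating T cells, had 0.651, 0.757 and 0.865 FPKM with hypoxanthine, against 1.09, 1.57 and 1.80 FPKM with inosine and 1.06, 2.04 and 1.64 FPKM with glucose. The hypoxanthine libraries were all below the others, and replicate 1 was the lowest of its medium in each medium. The log2 difference was -0.49 ± 0.15 against inosine (adjusted p = 0.0496) and -0.54 ± 0.15 against glucose (adjusted p = 0.0361). At such levels the added 1 compresses the change: the mean FPKM was 0.51 times that with inosine and 0.48 times that with glucose, and with a pseudocount of 0.1 the log2 difference was -0.87 against inosine and -0.93 against glucose. Against inosine it was lost without hypoxanthine replicate 1 (adjusted p = 0.145), 2 (0.114) or 3 (0.0967), inosine replicate 2 (0.112) or 3 (0.163), or glucose replicate 3 (0.0783). Against glucose it was lost without hypoxanthine replicate 1 (0.111), 2 (0.0924) or 3 (0.0762), or glucose replicate 2 (0.107) or 3 (0.109). It was also lost without the 2 libraries of highest mitochondrial share, at 0.212 against inosine and 0.113 against glucose. In the authors' deposited table, as the other medium over hypoxanthine, Klf2 had a log2 fold change of 1.014 for inosine (adjusted p = 0.0021) and 1.077 for glucose (adjusted p = 0.000705). Inosine minus glucose was -0.05 in the limma fit, with a 95% interval of -0.39 to 0.30. Arl4c, Epsti1 and F2r were the genes closest to Klf2, at 0.0775, 0.0975 and 0.1045, where Klf2 itself deviated by 0.298. This likeness too holds on the compressed scale. Arl4c averaged 9.24 FPKM with hypoxanthine, 12.9 with inosine and 13.3 with glucose, a smaller relative fall than that of Klf2.

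S1pr1, the egress receptor, had 0.587, 0.608 and 0.557 FPKM with hypoxanthine, against 0.615, 0.443 and 0.519 FPKM with inosine and 0.628, 0.558 and 0.742 FPKM with glucose. The groups overlapped in every comparison. The log2 difference was 0.06 against inosine, with a 95% interval of -0.09 to 0.20 (adjusted p = 0.598), and -0.05 against glucose, with an interval of -0.19 to 0.09 (adjusted p = 0.636). Between inosine and glucose the difference was -0.11, with an interval of -0.25 to 0.04. The values rest on 79 to 111 reads per library in the hypoxanthine medium.

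Cxcr4, the receptor for CXCL12, had 1.79, 2.52 and 2.26 FPKM with hypoxanthine, against 3.23, 0.81 and 2.46 FPKM with inosine and 3.46, 1.17 and 2.01 FPKM with glucose. With inosine and with glucose the library of replicate 2 was the lowest, and with hypoxanthine it was the highest, so the spread within 2 of the media exceeded any difference between media. The log2 difference was 0.09 against inosine, with a 95% interval of -0.66 to 0.85 (adjusted p = 0.902), and 0.05 against glucose, with an interval of -0.71 to 0.80 (adjusted p = 0.974). For inosine minus glucose it was -0.05, with an interval of -0.80 to 0.71.

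By level per gene length in the hypoxanthine medium, the order ran from Ccr7 through Cxcr6 to Ccr2 and Cxcr3, then Cxcr4, Klf2, S1pr1 and Ccr8. Ccr2 at 6.74 ± 0.70 and Cxcr3 at 6.26 ± 0.95 FPKM were within their spread. In inosine, Cxcr6 led at 77.6 ± 9.47 FPKM over Ccr7 at 27.1 ± 4.39, and Ccr2 at 16.1 ± 2.23 lay close to Cxcr3 at 13.8 ± 2.62. In glucose, Cxcr6 at 69.8 ± 3.44 again led Ccr7 at 27.6 ± 5.75, and Cxcr3 at 16.7 ± 3.85 and Ccr2 at 15.3 ± 1.51 were within their spread. Cxcr4 and Klf2 were also within their spread in inosine and glucose.

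Summed over the 17 measured chemokine receptors, the level was 217.5 ± 5.85 FPKM with hypoxanthine, 168.7 ± 2.29 with inosine and 162.3 ± 8.24 with glucose (SD, n = 3 each). Ccr7 made up 57.4 ± 1.75% of that sum with hypoxanthine, 16.1 ± 2.79% with inosine and 16.9 ± 2.88% with glucose. The share of Cxcr6 was 26 ± 2.45% with hypoxanthine, 46 ± 5% with inosine and 43.1 ± 2.62% with glucose. A share also falls when another receptor raises the sum. The Cxcr6 level itself was 0.73 times that with inosine and 0.812 times that with glucose, where it did not pass. Ccr2 made up 3.10 ± 0.28% with hypoxanthine, 9.54 ± 1.28% with inosine and 9.44 ± 0.55% with glucose, and Cxcr3 2.89 ± 0.51% with hypoxanthine, 8.18 ± 1.44% with inosine and 10.4 ± 2.97% with glucose. So the leading receptor transcript was Ccr7 in each hypoxanthine library and Cxcr6 in each library of the other media. The ratio of Ccr7 to Cxcr3 FPKM, a lymph node receptor over an inflammatory one, was 17.6, 23.8 and 19.4 with hypoxanthine, 2.62, 1.33 and 2.19 with inosine and 2.48, 1.10 and 1.67 with glucose. The lowest hypoxanthine ratio was above the highest of either other medium. This follows from the levels above, as every hypoxanthine library was higher for Ccr7 and lower for Cxcr3 than all others. The ratio of Ccr7 to the more abundant Cxcr6 was 2.4, 1.92 and 2.35 with hypoxanthine. With inosine it was 0.437, 0.253 and 0.38, and with glucose 0.506, 0.34 and 0.345.

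**Figure D3:**
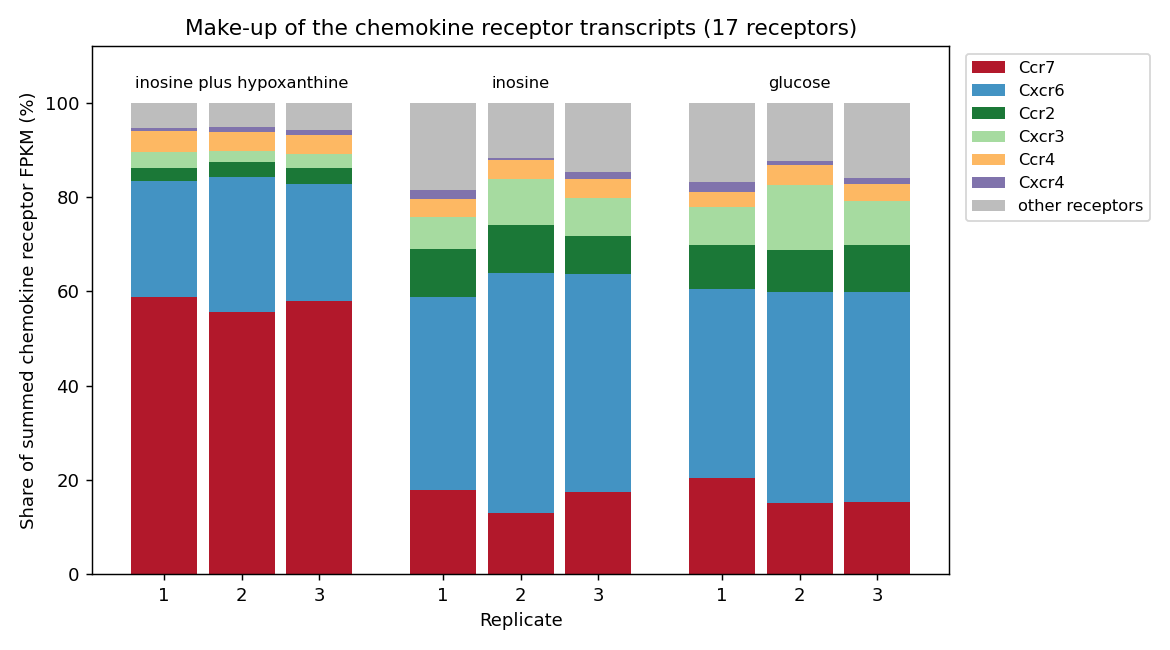
Share of each receptor in the summed FPKM of the 17 measured chemokine receptors, in percent, with 1 stacked bar per library. Ccr7 fills over 55% of each hypoxanthine bar and at most 20.3% of each other bar, and Cxcr6 is the largest block in inosine and glucose.

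Among the 22 other chemoattractant receptors measured, 6 rose and 3 fell against inosine, and 6 rose and 4 fell against glucose, shares of 40.9% and 45.5% beside 21.3% and 20.3% of all genes. The median log2 difference of the list was -0.02 in each comparison, beside 0.002 and 0.001 over all genes. Ltb4r1, the leukotriene B4 receptor of effector T cells, fell to 3.24 ± 0.13 FPKM with hypoxanthine, against 12.1 ± 2.06 with inosine (adjusted p = 3.93e-05) and 15.0 ± 0.67 with glucose (adjusted p = 2.05e-05). C5ar1, the complement C5a receptor, fell to 0.0415 ± 0.0438 FPKM, against 0.521 ± 0.13 with inosine and 0.615 ± 0.0968 with glucose. It was under 1 FPKM in every library, and its hypoxanthine values rest on 4, 2 and 11 reads. The prostaglandin E2 receptor Ptger2 rose to 6.66 ± 0.45 FPKM, against 3.45 ± 0.46 with inosine (adjusted p = 0.000893) and 3.61 ± 0.41 with glucose, and P2ry10, a lysophospholipid receptor, rose to 37.7 ± 4.89 FPKM, against 22.8 ± 1.96 with inosine and 19.9 ± 2.49 with glucose.

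Among the 26 adhesion molecules and enzymes of selectin ligand synthesis, 4 rose and 6 fell against inosine, and 5 rose and 7 fell against glucose, shares of 38.5% and 46.2% beside 21.3% and 20.3% of all genes. The median log2 differences were 0.004 and 0.007. Cd226, an activating adhesion receptor, rose to 15.7 ± 1.78 FPKM, against 6.42 ± 0.09 with inosine (adjusted p = 0.000189) and 5.88 ± 0.86 with glucose. St3gal6, a sialyltransferase of selectin ligands, fell to 4.00 ± 0.11 FPKM, against 6.54 ± 0.21 with inosine and 6.83 ± 0.28 with glucose. Itgb2, the beta chain of LFA-1, fell to 106.6 ± 9.42 FPKM, against 136.3 ± 9.19 with inosine (adjusted p = 0.0167) and 135.4 ± 4.12 with glucose. Selplg, the P-selectin ligand PSGL-1, passed only against glucose (log2 difference 0.30, adjusted p = 0.0298, against 0.0893 with inosine). The Itgb2 call was lost without inosine replicate 3 (0.0585), glucose replicate 1 (0.0612) or glucose replicate 2 (0.0525). The Selplg call was lost without hypoxanthine replicate 1 (0.0949), 2 (0.0581) or 3 (0.0855) and without glucose replicate 1 (0.0631) or 3 (0.108).

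The KLF and FOXO list holds 22 transcription factors, regulators and targets, and 9 rose and 3 fell against inosine, while 8 rose and 3 fell against glucose, shares of 54.5% and 50% beside 21.3% and 20.3% of all genes. Against glucose 7 passed without hypoxanthine replicate 3 or glucose replicate 3. Its median log2 difference was 0.22 and 0.17, beside 0.002 and 0.001 over all genes. Bach2, a repressor that holds CD8+ T cells in a stem-like or memory state, rose to 8.31 ± 0.65 FPKM, against 2.23 ± 0.42 with inosine (adjusted p = 4.14e-05) and 2.42 ± 0.15 with glucose (adjusted p = 5.27e-05). Klf11 rose to 1.05 ± 0.05 FPKM, against 0.50 ± 0.04 with inosine and 0.46 ± 0.06 with glucose, and so moved opposite to Klf2. Klf6, chosen after its values were seen, rose to 27.6 FPKM, against 17.1 with inosine and 17.8 with glucose. Wwp1, a ubiquitin ligase that targets KLF2, fell to 4 ± 0.12 FPKM, against 5.41 ± 0.30 with inosine and 5.7 ± 0.29 with glucose. Klf7 fell to 3.12 ± 0.20 FPKM, against 4.76 ± 1.11 with inosine (adjusted p = 0.0299) and 4.91 ± 0.43 with glucose (adjusted p = 0.0205), and Foxo4 fell to 5.07 ± 0.15 FPKM, against 6.22 ± 0.15 with inosine (adjusted p = 0.04) and 6.44 ± 0.63 with glucose (adjusted p = 0.0228). Wwp1, Klf7 and Foxo4 were the genes that fell in both comparisons and were chosen after their values were seen. The calls of Klf7 and Foxo4 were lost without any 1 hypoxanthine library (adjusted p of 0.0526 to 0.112 over both genes and comparisons). Without glucose replicate 3, Klf7 lost its call against glucose (0.0781) and Foxo4 both calls (0.0656 against inosine, 0.0665 against glucose). Klf7 also lost its call against inosine without inosine replicate 3 (0.055). Foxo4 lost its call against inosine without inosine replicate 1 (0.0602), 2 (0.0699) or 3 (0.117) and against glucose without glucose replicate 2 (0.0661). Of the 9 genes that rose against inosine, Foxo1 lost its call in 11 of 17 settings and Klf12 in 10 of 16. Il7r, a FOXO1 target of long-lived T cells, had 26.1 ± 1.81 FPKM, against 24.2 ± 4.83 with inosine (adjusted p = 0.637) and 23.1 ± 3.61 with glucose (adjusted p = 0.465).

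Of 19 genes of sphingosine-1-phosphate metabolism and egress, 2 rose and 1 fell against inosine, and 1 rose and 1 fell against glucose, shares of 15.8% and 10.5% beside 21.3% and 20.3% of all genes. Against inosine 1 passed without hypoxanthine replicate 3 or inosine replicate 3. Against glucose 1 passed without hypoxanthine replicate 1 or 3 or glucose replicate 3, and 4 passed without glucose replicate 1. Cd69, an early activation antigen that removes S1PR1 from the cell surface, rose to 53.9 ± 2.80 FPKM, against 41.4 ± 3.12 with inosine (adjusted p = 0.0126) and 39.1 ± 3.05 with glucose (adjusted p = 0.00544). The second gene that rose against inosine, S1pr2 (adjusted p = 0.0471), a receptor that restrains migration, is named after its values were seen. It lost its call in 10 of 17 settings, among them without hypoxanthine replicate 1 (0.144) or 3 (0.157), inosine replicate 2 (0.11) or 3 (0.0982), or glucose replicate 1 (0.0584), 2 (0.0603) or 3 (0.0758). The acid ceramidase Asah1 fell to 10.6 ± 0.65 FPKM, against 13.8 ± 0.50 with inosine and 13.1 ± 0.53 with glucose. Grk2, a kinase that desensitizes these receptors, had 83.1 ± 9.10 FPKM, against 81.7 ± 14.2 with inosine and 87.2 ± 4.58 with glucose, and did not pass. The Cd69 call against inosine was lost without hypoxanthine replicate 3 (0.051) or inosine replicate 3 (0.0512). The Asah1 call against glucose was lost without hypoxanthine replicate 1 (0.0684) or 3 (0.0589) or glucose replicate 3 (0.0705).

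The ligands of the receptors included 6 measured genes, of which Ccl1 alone passed, 16.7% in each comparison beside 21.3% and 20.3% of all genes. Ccl1, the ligand of CCR8, had 128.4, 125.0 and 132.9 FPKM with hypoxanthine, against 17.4, 2.57 and 9.15 FPKM with inosine (adjusted p = 0.0146) and 20.3, 0.605 and 9.55 FPKM with glucose (adjusted p = 0.0108). Replicate 2 was the lowest of its medium in inosine and in glucose, from 73 reads with inosine and 14 with glucose. The call against inosine was lost without hypoxanthine replicate 3 (0.0534) and without the 2 libraries of highest mitochondrial share (0.105). Cxcl16 and Cxcl10, ligands of CXCR6 and CXCR3, stayed under 1 FPKM on average in every medium, and neither passed.

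Of 46 genes of receptor signalling and desensitization, 6 rose and 3 fell against inosine, and 3 rose and 4 fell against glucose, shares of 19.6% and 15.2% beside 21.3% and 20.3% of all genes. Against inosine 4 passed without hypoxanthine replicate 1 or 3, and 5 without inosine replicate 3. Against glucose 11 passed without inosine replicate 1 and 13 without inosine replicate 2. Rgs1, a GTPase activator that dampens chemokine receptor signals, rose to 153.7 ± 4.30 FPKM, against 60.1 ± 14.0 with inosine (adjusted p = 0.00237) and 59.8 ± 16.1 with glucose (adjusted p = 0.00231). Rgs10, of the same family, rose to 21.01 ± 2.04 FPKM, against 13.1 ± 1.06 with inosine and 13.8 ± 0.74 with glucose. Pik3cg, the catalytic subunit of the kinase that G protein-coupled receptors engage in T cells, fell to 10.0 ± 0.54 FPKM, against 14.0 ± 0.52 with inosine and 13.0 ± 0.55 with glucose. The cytoskeletal genes Coro1a and Cdc42, which T cell migration needs, did not pass, at 629.3 and 146.3 FPKM with hypoxanthine, 630.0 and 177.5 with inosine, and 592.2 and 161.1 with glucose.

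**Figure D4:**
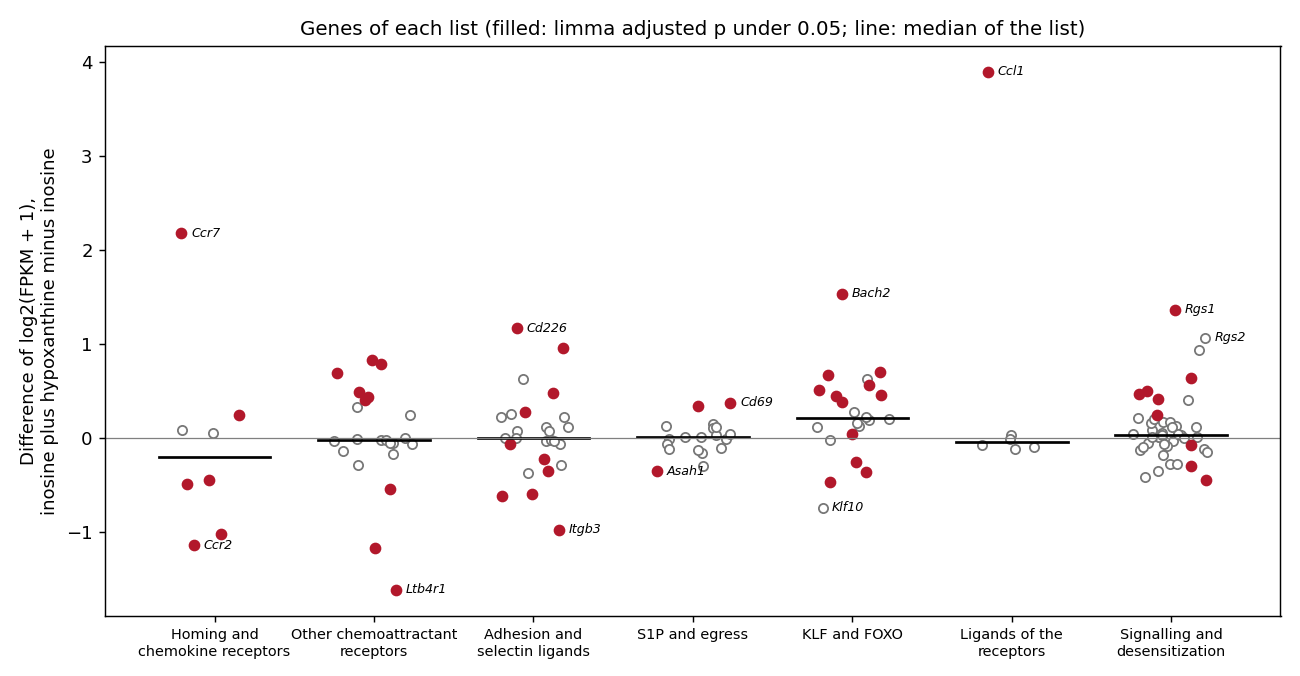
Difference of log2(FPKM + 1), inosine plus hypoxanthine minus inosine, for the 8 genes and the genes of 6 related lists; each circle is a gene, filled at a limma adjusted p under 0.05, and the line is the median of the list. Ccl1, Ccr7 and Bach2 lie highest and Ltb4r1 lowest, and the KLF and FOXO list has a median of 0.22.

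Over the 6 lists, 44 of 139 measured genes passed against inosine (31.7%), 28 higher and 16 lower, beside 21.3% of all genes, and 43 passed against glucose (30.9%), 24 higher and 19 lower, beside 20.3%. Between inosine and glucose no gene of any list passed by limma, beside 0.0097% of all genes, and the median difference of the 8 receptor genes was -0.03. These counts describe lists that were chosen with earlier results known.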

How the data were processed

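RNA-seq libraries of 9 samples, 3 per medium, were grouped by their treatment labels. The genome build was mm10, and the tools named are DESeq2 1.38.3, Subread 2.0.1, featureCounts and HISAT2, per the submitters' processing notes, which do not give their roles. For each library the authors deposited FPKM, scaled by gene length and library size. The tables also hold, as deposited, the authors' group mean signal, which behaves as a mean of size-factor-normalized reads. Log2 fold changes and p-values, raw and adjusted, were deposited by the authors too.

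Differences were tested with limma 3.58.1 in R 4.3.3, trend and robust, on log2(FPKM + 1) of all 20618 genes without a filter, in 1 fit that gives each medium its mean over 9 libraries (residual degrees of freedom 6), with Benjamini-Hochberg adjustment at 0.05. A count test was planned in case the tables held counts, and they hold FPKM. The fit was tested on simulated data. Whole reads, used for depth and for a limma voom alternative, were recovered for 20615 genes by solving the authors' group means for whole numbers. Coordinates are from GENCODE M21 on GRCm38 (mm10), and promoter windows from RefSeq. Besides the 8 genes, the text names genes from each list, 2 by smallest adjusted p and 2 by highest mean FPKM, and for each gene that passed its 3 closest genes averaging 1 FPKM or more; some genes that this rule picks are not reported here. The members and lists were chosen with earlier results of these data known. Alternatives covered the pseudocount, a filter, scaling, voom, a replicate block, the media fitted, each library left out and, chosen after seeing the data, the 2 libraries of highest mitochondrial share left out.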

Additional observations from a re-analysis of the deposited data

How the results depend on the processing

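Over 17 other settings, Ccr7 and Ccr2 kept their direction and their call in both comparisons with hypoxanthine. Cxcr3 kept both against inosine and lost its call against glucose in 1 setting. The settings that end the calls of Ccr8, Cxcr6 and Klf2 by leaving out a library are given with those genes. In addition, the call of Ccr8 against inosine was lost when only the libraries of the 2 media were fitted (adjusted p = 0.0556), and so was that of Cxcr6 (0.0594). Cxcr6 passed against glucose when genes under a mean of 1 FPKM were left out (0.0417) and without the 2 libraries of highest mitochondrial share (0.0144). That filter removes Ccr8 and S1pr1, which have no value there. Differences near 0 changed sign. For inosine minus glucose, Ccr8 was -0.0456 with a pseudocount of 0.1 and -0.83 with voom. Without the 2 libraries of highest mitochondrial share, Cxcr4 was -0.34 against inosine and -0.0305 against glucose with hypoxanthine, and for inosine minus glucose Cxcr4 was 0.31, Ccr7 0.12 and Ccr2 -0.0083. With each library left out in turn, Cxcr4 ran from -0.27 to 0.34 for hypoxanthine against inosine, from -0.21 to 0.31 against glucose and from -0.30 to 0.31 for inosine against glucose. For inosine against glucose in the same settings, Ccr7 ran from -0.13 to 0.14, Ccr2 from -0.0145 to 0.17, Ccr8 from -0.0312 to 0.0712 and Klf2 from -0.20 to 0.0799.

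Leaving out each library gave 2757 to 4487 genes passing against inosine (4382 with all), 2677 to 4879 against glucose (4192 with all) and 1 to 7 for inosine against glucose (2 with all), the lowest counts of the first comparisons coming without hypoxanthine replicate 3. The number of the 8 genes passing against glucose ran from 3, without glucose replicate 3, to 5. For inosine against glucose, 0 genes passed with the filter, with voom or with only 2 media fitted, and 1 passed without the 2 libraries of highest mitochondrial share.

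Libraries with the same number are not stated to share an animal or day. The correlation of their deviations from the medium means was 0.411, 0.635 and 0.018 between hypoxanthine and inosine, 0.085, -0.201 and -0.063 between hypoxanthine and glucose, and 0.404, 0.264 and -0.270 between inosine and glucose, so the numbers were not taken to pair the libraries. With a replicate block over 9 libraries, 6 and 5 of the 8 genes passed in the comparisons with hypoxanthine, and 1 gene of the table passed for inosine against glucose. With a replicate block and only 2 media, 5 of the 8 passed against inosine and 3 against glucose, where 22 list genes and 2110 genes of the table passed and where Cxcr3 (0.0541) and Klf2 (0.0701) did not; 0 genes passed for inosine against glucose. Ccr8 did not pass against inosine in that fit (0.123). Of the named list genes with a call against glucose, Asah1, Ccl1, Cd69, Itgb2, P2ry10, Pik3cg, Rgs10 and Selplg lost it there (0.0512 to 0.0786). Foxo4 (0.1) and Klf12 (0.108) lost theirs as well. Selplg also failed with the block over 9 libraries (0.0538) and with median-of-ratios scaling (0.0552). Of the signalling list, 14 genes passed against inosine with voom (9 as reported), and against glucose 13 with voom and 12 with the filter (7 as reported). Among the 8 genes, depth limits Ccr8 most, at 0 to 25 reads per library. The list counts also include scarce genes, such as C5ar1 and Klf12, the latter at 4 to 40 reads per library.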

Other observations

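Within the inosine and the glucose medium, several genes were low in the library of the same number. Ccr3, chosen after its values were seen, had 0.332, 0.0301 and 0.154 FPKM with inosine and 0.327, 0.0309 and 0.172 FPKM with glucose in replicates 1, 2 and 3. Replicate 2 was likewise the lowest of its medium for Ccr7, Cxcr4 and Ccl1 in inosine and in glucose. The coefficient of variation of Ccr7 was 0.402% with hypoxanthine, 16.2% with inosine and 20.9% with glucose, and that of Cxcr4 was 17.1% with hypoxanthine, 57% with inosine and 52.4% with glucose.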
